A study of Homo sapiens with 2 samples.

Results

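Of the genes that transmit or restrain signals of the insulin-like growth factors (IGFs), 10 were followed in a head and neck cancer cell line made to express the microRNA let-7i. They are the binding proteins IGFBP2, IGFBP3, IGFBP4, IGFBP6 and IGFBP7, the receptors IGF1R, IGF2R and INSR, and the receptor substrates IRS1 and IRS2. Every probe set (a group of short probes for 1 transcript) that the array's annotation assigns to one of these symbols was taken, which gave 26 of 54675 probe sets, for 10 of 19775 genes with a name. The set was chosen by pathway with the ratios of these same arrays in view, and above all with the low ratio of IGFBP3 known, so the values below are a description and carry no test.

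The cells were OECM1, an established line, stably transfected either with a plasmid that carries let-7i beside the red fluorescent protein mCherry or with the empty mCherry plasmid. Both cultures thus carried the mCherry vector and grew in RPMI with fetal bovine serum. The labels do not say whether each culture was 1 clone or a pool. Each group had 1 array, so no difference below has a replicate check and no p-value or SD between cultures was computed.

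The signal of a probe set is its MAS5 value, on a linear scale set by the authors to a common mean on both arrays. A floor marks where signals were taken as measured, and it was the median of each array, 88.0 on the array of the empty vector (the control array) and 79.5 on that of let-7i. In each pair of signals below the control array comes first. Ratios are log2 of let-7i over control, centred on the median of all genes measured on both arrays, and below zero they mean a lower level with let-7i. A signal under the floor was set to it, so such a ratio is a bound, and a probe set under it on both arrays has no ratio. The spread of 1 probe set was taken from the 2 brightest measured probe sets of each of 5807 genes that had at least 2, as the SD of the difference over the square root of 2. With these genes split into 4 classes by signal it was 0.34 in the dimmest class, 0.25 and 0.21 in the next, and 0.15 in the brightest, and it covers probe noise only.

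IGF1 and IGF2 are secreted growth factors that act through IGF1R and INSR, receptor tyrosine kinases that phosphorylate the docking proteins IRS1 and IRS2 and so recruit PI3 kinase. The binding proteins hold the ligands outside the cell, where they can prolong their life or keep them from the receptor, and IGF2R takes IGF2 to lysosomes for breakdown. In squamous carcinoma cells this pathway is known as a survival and growth signal. let-7 microRNAs pair through their seed with sites in messenger RNAs, and IGF1R, INSR and IRS2 are among the transcripts reported as let-7 targets in other systems.

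The mature let-7i introduced here and its nearest relative are shown to mark the seed, in capitals, which are bases 2 to 8 from the 5′ end. RefSeq places let-7i at chr12:62603691-62603712 on the plus strand of GRCh38.p14, and let-7g at chr3:52268336-52268357 on the minus strand.
hsa-let-7i-5p: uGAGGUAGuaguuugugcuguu
hsa-let-7g-5p: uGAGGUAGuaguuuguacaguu
The same seed was found in 11 of 2370 mature human microRNAs in the RefSeq table. let-7g differed from let-7i at 2 of 22 bases and let-7a at 4, all outside the seed. The array does not measure the mature microRNA, and 0 probe sets were named for its gene, so the level of let-7i did not check the labels. The member transcripts were not searched for seed matches.

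IGFBP3 was much lower with let-7i, IGFBP6 was moderately lower and IRS1 was higher, while the 3 receptors and IRS2 differed little. IGFBP2, IGFBP4 and IGFBP7 were below the floor on both arrays. Of the 26 probe sets, 18 were measured on both arrays, 1 on the let-7i array only and 7 on neither. Of the 7 genes above the floor, 4 had a log2 ratio below zero and 3 above, the sign of the small ratios of IGF1R, IGF2R and INSR depending on the setting, and their median was -0.0054 beside -0.0093 over all 12284 genes that reached the floor on either array. At a 2-fold difference 1 gene was lower and 0 were higher, against 1.38% of all genes lower and 1.06% higher. By probe set, 2 of the 18 were 2-fold lower and 1 was higher, against 1.11% and 0.798% of all probe sets measured on both arrays. At 1.5-fold, 2 were lower and 1 higher, against 5.93% and 4.18% of all genes. The genes were chosen with this contrast known, so these shares are printed for scale and nothing is read from them.

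**Figure D1:**
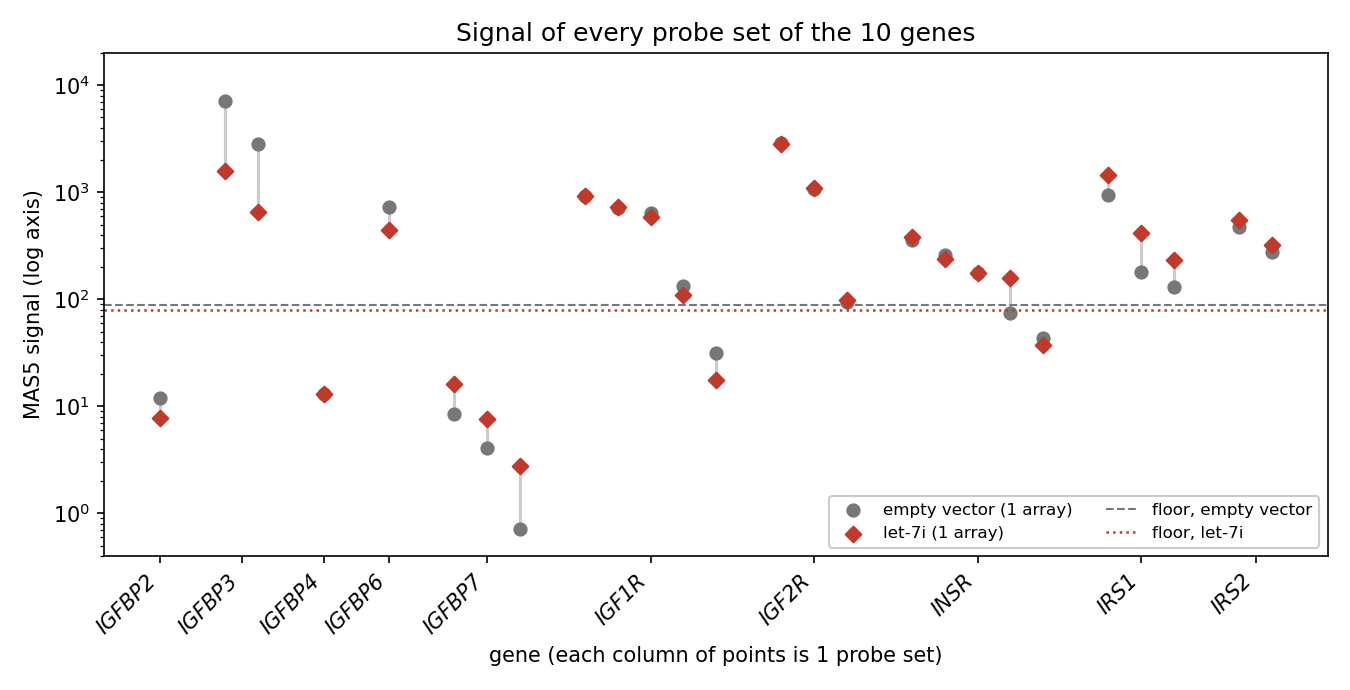
MAS5 signal (log axis) of every probe set of the 10 genes on the empty vector array (grey circles) and the let-7i array (red diamonds), 1 array each, with the floor of each array as a horizontal line. Both IGFBP3 probe sets are far lower with let-7i, all 3 IRS1 probe sets are higher, and the probe sets of IGFBP2, IGFBP4 and IGFBP7 lie below both floors.

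IGFBP3 encodes the main carrier of IGFs in blood, and many epithelial cells secrete it. Its brightest probe set read 7141 on the control array and 1588 on the let-7i array, which is 4.51-fold lower (log2 ratio -2.17). The other read 2824 and 648.4 (log2 ratio -2.13). The probe sets thus differed by 0.046 on the log2 scale, while the median range within all genes with 2 or more measured probe sets was 0.31. Their ratios were 14.1 and 10.2 times the SD of 1 probe set at such signals. Among 11140 genes measured on both arrays, IGFBP3 had the second lowest ratio (rank 2 from the lowest). It was 1 of 2 genes, of 5807 with at least 2 measured probe sets, in which every one had a log2 ratio of -2 or lower. The other was TIMP3, an inhibitor of metalloproteinases. IGFBP3 was chosen with its low ratio known, and the limit of -2 lies just above its own ratios. The rank and this count are thus a description and lend no support. Both IGFBP3 probe sets carry the suffix _s_at, which marks probes that can match several transcripts.

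IGFBP6 encodes a binding protein that prefers IGF2 over IGF1. Its only probe set read 733.4 on the control array and 443.6 on the let-7i array, which is 1.66-fold lower (log2 ratio -0.73). This was 2.86 times the SD of 1 probe set at such signals, and no further probe set could be set beside it. Of the genes measured on both arrays, 2.91% had a lower ratio.

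The remaining binding proteins gave no ratio. IGFBP2, which is secreted by many carcinomas, read 12.1 and 7.76. IGFBP4, known as an inhibitor of IGF action that the protease PAPPA cleaves, had 13.0 and 13.1. IGFBP7, a relative that binds IGFs only weakly, had 3 probe sets, with signals of 8.47 and 16.4, of 4.07 and 7.58, and of 0.723 and 2.78. All 5 of these probe sets were several times dimmer than the floor, so no direction can be given for them.

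IGF1R is the main signalling receptor for both IGFs. Its brightest probe set read 915.6 (control) and 914.5 (let-7i), nearly the same (log2 ratio -0.0054). The next had 712.5 and 733.8, a ratio of 0.039, and the third had 642.9 and 585.1, a ratio of -0.14. The dimmest measured one had 133.6 and 110.4, a ratio of -0.28, and the fifth was below the floor (31.6 and 17.6). Every measured IGF1R ratio was smaller than the SD of 1 probe set at its signal.

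IGF2R, the mannose 6-phosphate receptor that clears IGF2 and carries lysosomal enzymes, had ratios near zero in all 3 of its probe sets. Its probe sets read 2907 and 2801, 1082 and 1098, and 95.5 and 98.1. The log2 ratios were -0.057, 0.017 and 0.036, a range of 0.093.

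INSR encodes the insulin receptor, which can pair with IGF1R in hybrid receptors. Its 3 probe sets measured on both arrays had signals of 356.1 and 382.1, of 259.7 and 237.6, and of 175.0 and 175.5. Their log2 ratios were 0.098, -0.13 and -0.00015. Another INSR probe set was under the floor on the control array (74.1) and above it with let-7i (158.9), which gives a lower bound of 0.85. That bound lies outside the range of the other INSR probe sets and is 2.52 times the SD of the dimmest class. The last was below the floor on both arrays (43.2 and 37.8). Over the 3 receptors, 10 probe sets were measured on both arrays, 4 with a ratio above zero and 6 below, and all 10 ratios were under 1 SD of a probe set. The receptor ratios ran from -0.28 to 0.098. Across all genes measured on both arrays 30.5% had an absolute ratio under 0.1, as the brightest probe set of each of these receptors did.

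**Figure D2:**
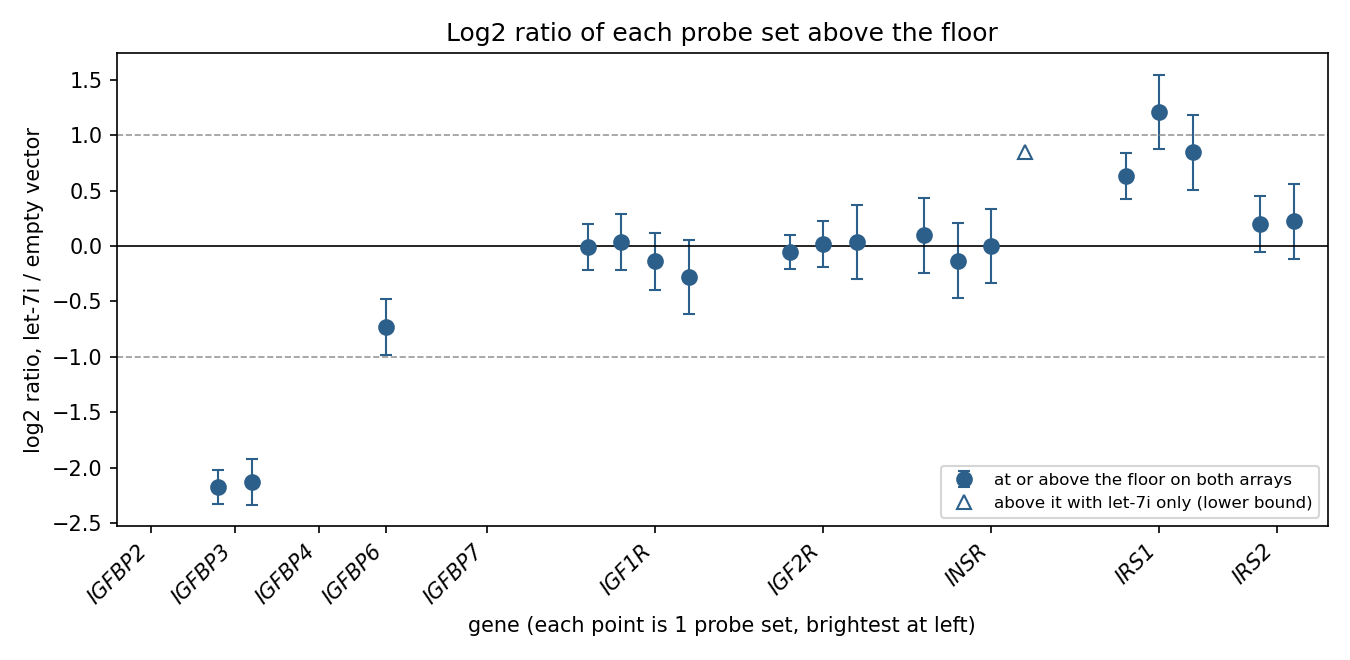
Log2 ratio (let-7i over empty vector) of the 18 probe sets measured on both arrays (filled circles) and the 1 lower bound (open triangle), ordered within each gene from the brightest at left; bars are ±1 SD of probe noise at such signals, not a spread between cultures, and dashed lines mark 2-fold. Genes with no point were below the floor on both arrays. The IGFBP3 probe sets sit near -2.2 and -2.1, those of IRS1 between 0.63 and 1.21, and the filled circles of the receptors within 0.28 of zero.

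IRS1, the first known docking protein of the insulin and IGF1 receptors, was higher with let-7i in all 3 of its probe sets. The brightest read 939.2 on the control array and 1460 on the let-7i array, which is 1.55-fold higher (log2 ratio 0.63). The second had 179.6 and 417.1, a ratio of 1.21, which is past 2-fold. The third had 129.3 and 233.1, a ratio of 0.85. The ratios were 3.04, 3.60 and 2.51 times the SD of 1 probe set at their signals, and they spread over 0.58, beside a median range of 0.43 in the 2689 genes with 3 or more measured probe sets. In 21 of those genes (0.781%) every measured probe set was at least 1.5-fold higher, IRS1 among them. The genes were chosen with these ratios in view, so this share is printed for scale and nothing is read from it. By its brightest probe set IRS1 ranked 349 from the highest of 11140 genes.

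IRS2, the related docking protein that is prominent in liver and pancreatic islets, differed less. Its 2 probe sets read 478.7 and 550.1, and 275.7 and 322.6. Their log2 ratios were 0.20 and 0.22, each under 1 SD of a probe set. Both docking proteins thus had ratios above zero, and in IRS1 alone of the 2 did they exceed the probe noise. The difference between them was not tested.

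**Figure D3:**
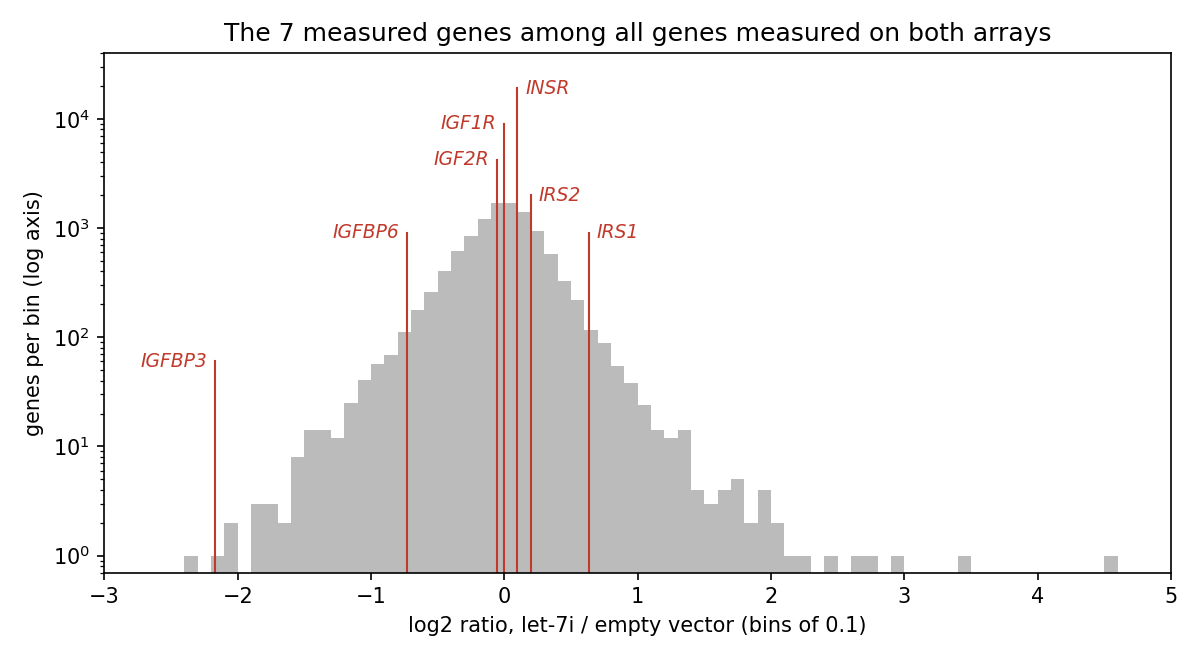
Number of genes (log axis) in bins of 0.1 of the log2 ratio, let-7i over empty vector, for the 11140 genes measured on both arrays, with the 7 measured genes of the set marked by red lines whose height has no meaning. IGFBP3 lies at the low end (-2.17), IGFBP6 (-0.73) and IRS1 (0.63) on the flanks, and IGF1R, IGF2R, INSR and IRS2 in the centre.

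The 120 bases before the RefSeq start of the 3 genes that differed by 1.5-fold or more are shown to set their promoters side by side, each read 5′ to 3′ on the strand of its gene. Capitals mark the GC box GGGCGG, searched on both strands (CCGCCC on the other), and the sequence TATATA. In GRCh38.p14 the windows are chr7:45921273-45921392 on the minus strand for IGFBP3, chr12:53097547-53097666 on the plus strand for IGFBP6 and chr2:226799821-226799940 on the minus strand for IRS1.
IGFBP3: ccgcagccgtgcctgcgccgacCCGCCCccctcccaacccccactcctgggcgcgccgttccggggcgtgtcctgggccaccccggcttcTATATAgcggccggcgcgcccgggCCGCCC
IGFBP6: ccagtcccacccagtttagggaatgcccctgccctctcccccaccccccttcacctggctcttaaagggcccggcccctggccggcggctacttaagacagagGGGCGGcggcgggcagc
IRS1: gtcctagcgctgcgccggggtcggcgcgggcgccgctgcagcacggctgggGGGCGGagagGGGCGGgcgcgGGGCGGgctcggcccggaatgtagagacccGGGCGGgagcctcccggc
The GC content was 80% for IGFBP3, 70% for IGFBP6 and 82.5% for IRS1, beside a median of 60% over 35116 RefSeq windows of the same length. The GC box occurred at 2, 1 and 4 places, and 34% of all windows held at least 1. IGFBP3 alone of the 3 held TATATA, 30 to 25 bases before the start, a sequence found in 1.86% of windows, and none of them held TATAAA (5.63% of windows). The E-box CACCTG, searched on both strands, was found once, in IGFBP6, and in 8.29% of all windows. These matches describe the letters of the windows only. Of the 10 genes, 9 had a window in the table.

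The genes next to these on the chromosome were read as well. Of the 6 nearest protein-coding genes around IGFBP3, 3 on each side, 2 were above the floor. TNS3, a focal adhesion protein, was 1.59-fold lower (5665 and 3563) and HUS1, a DNA damage clamp subunit, was 1.34-fold higher (494.1 and 662.5). IGFBP1, which lies next to IGFBP3, was below the floor (12.6 and 29.5). Of the 5 neighbours of IGFBP6 above the floor 0 were past 1.5-fold. Of the 4 around IRS1, 1 was, COL4A4, a chain of type IV collagen, which was at least 2.91-fold lower (230.5 and 45.2). IRS1 itself was higher. Of all genes above the floor, 5.93% were at least 1.5-fold lower and 4.18% higher, and nothing is read from the counts of neighbours.

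The rest of the pathway was described from lists by role, 108 further genes of which 103 had a probe set with no other symbol and 81 were above the floor. Of these 81, 43 had a ratio above zero and 38 below, and the median was 0.028. At 2-fold 2 were higher and 1 was lower, beside the 1.06% and 1.38% of all genes.

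Among 6 ligands of the insulin and relaxin family, IGF2 was not analysed here and 4 were below the floor, INS among them (3.38 and 3.51). IGF1, named after its values were seen, was above the floor on the control array only (121.3 and 78.6), at least 1.53-fold lower. Of 13 further proteins with an IGF-binding or related domain, 5 were above the floor, 3 with a ratio above zero and 2 below, and 0 past 2-fold. IGFBP5 (67.5 and 37.2) and IGFALS, the subunit that holds IGFBP3 complexes in blood (45.5 and 13.7), were below the floor. The matricellular proteins CCN1 and CCN2, known targets of YAP, were 1.41-fold and 1.40-fold higher, and CCN5 was 1.67-fold lower at dim signals (153.7 and 92.5).

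Proteases that can cut binding proteins, with their inhibitors, held the 3 genes past 2-fold by their brightest probe set. PRSS23, also in this list, was 1.12-fold higher by that measure, but its 3 measured probe sets had ratios from 0.16 to 1.44. Of 17, 14 were above the floor, 7 with a ratio above zero and 7 below. MMP1, a collagenase, read 152.9 and 3610 (log2 ratio 4.56), MMP2, a gelatinase, was at least 2.68-fold higher (30.3 and 236.2), and TIMP3 read 2987 and 585.5 (log2 ratio -2.35). The call of MMP2 did not hold once the floor was raised to the 65th percentile. MMP7, matrilysin, was 1.74-fold lower (569.2 and 328.9) and ADAM12 1.57-fold lower (183.9 and 117.1). TIMP1, a second metalloproteinase inhibitor, was 1.57-fold higher (3778 and 5949). STC2, an inhibitor of PAPPA, was 1.53-fold higher, its 2 probe sets reading 0.62 and 0.73 on the log2 scale. PAPPA itself was below the floor (52.9 and 74.5). Whether these proteases acted on IGFBP3 protein was not measured.

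Of 23 genes next to the receptors, 20 were above the floor, 11 with a ratio above zero and 9 below, with a median of 0.010 and 0 past 2-fold. GRB10, an adaptor that restrains both IGF1R and INSR, was 1.85-fold lower in its 1 measured probe set (181.8 and 98.7). At similarly dim signals the leukocyte marker CD3E was 1.91-fold lower (172.6 and 90.4). SOCS3, a feedback inhibitor, had a brightest probe set 1.56-fold higher (293.7 and 458.4), but its other had a log2 ratio of -0.21. ENPP1, an inhibitor of the insulin receptor, was 1.52-fold lower, and GAB1, a docking protein, 1.45-fold lower with all 4 probe sets below zero (-0.97 to -0.17).

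Of 29 genes of the PI3K, AKT and mTOR chain, 25 were named and 23 measured, 13 with a ratio above zero and 10 below, with a median of 0.050. By the brightest probe set of each gene, all but 1 of the 23 had an absolute ratio under 0.5. The exception was PIK3CD, a catalytic subunit of PI3 kinase, at 0.75 (136.0 and 229.0), with its other probe set at 0.17. Ratios under 0.5 were common on these arrays. The median absolute ratio of all genes measured on both was 0.18, so nothing is read from this count. AKT2 had a ratio of 0.13 by its brightest probe set. Its 6 measured probe sets ran from -0.80 to 0.18, with 4 of them below zero. AKT1S1, an inhibitor within mTOR complexes, was 1.35-fold higher, PIK3R3, a regulatory subunit, 1.33-fold lower, and PHLPP2, an AKT phosphatase, 1.28-fold higher, although its second probe set had a ratio of -0.63.

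The 4 FOXO transcription factors all had ratios below zero, as did 51.3% of all genes above the floor. Of the 4, 0 were past 2-fold. FOXO6 was 1.65-fold lower (792.7 and 481.0), FOXO4 1.51-fold (126.2 and 83.8), FOXO3 1.38-fold (3783 and 2750) and FOXO1 1.32-fold (329.1 and 250.3). FOXO3 had 3 measured probe sets, with ratios from -0.46 to -0.0085. The ratio of FOXO1 (-0.40) was close to the SD of 1 probe set at its signals (0.34). With 4 partner genes the list had 6 of 8 above the floor, 2 with a ratio above zero and 4 below, and a median of -0.43.

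Genes of the mannose 6-phosphate route, which supplies and sorts the cargo of IGF2R, were all 12 measured, 7 with a ratio above zero and 5 below, with a median of 0.042. The largest ratios were in PLIN3, a protein of lipid droplets and receptor transport (1.30-fold higher), the lysosomal protease CTSB (1.23-fold higher), the retromer subunit VPS35 (1.19-fold higher) and NAGPA, which uncovers the sorting tag (1.14-fold lower). The ratios of this list ran from -0.19 to 0.38, close around those of IGF2R.

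**Figure D4:**
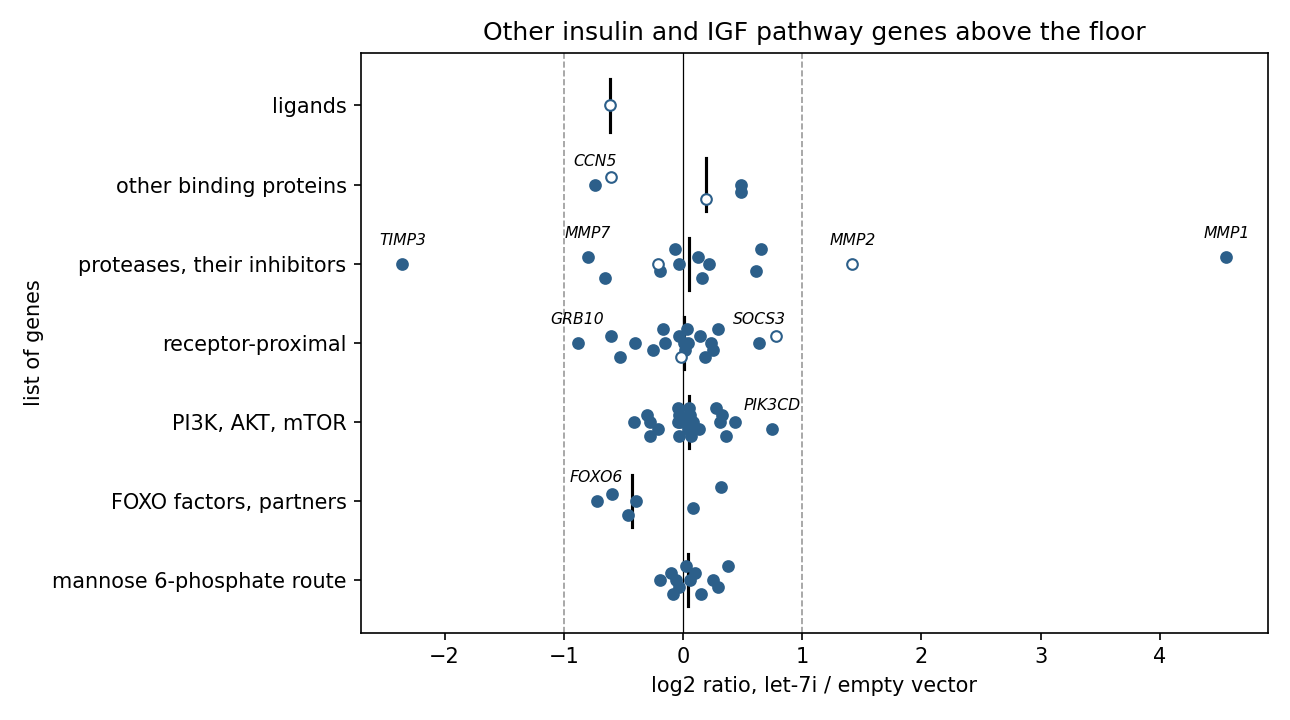
Log2 ratio (let-7i over empty vector) of the 81 further pathway genes above the floor, 1 row per list; filled circles were measured on both arrays, open circles are bounds, the black bar is the median of the list and dashed lines mark 2-fold. MMP1 and MMP2 lie above 2-fold and TIMP3 below it, and the 4 FOXO genes lie between -0.72 and -0.40.

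The labelled cell type was set against its markers. Of 9 named squamous or epithelial markers 6 were measured, KRT8, KRT18, EPCAM, CDH1, DSP and SFN, with a lowest signal of 5090 on either array, while the basal keratins KRT5 and KRT14 and the desmosomal PKP1 were below the floor. The summed signal of the 9 was 75651 on the control array against 67481 with let-7i. EPCAM had the lowest ratio (-0.71) and CDH1 the next (-0.42, with -0.55 in its other probe set). Of the 6 measured, 4 had a ratio below zero and 2 above. Of 10 genes that mark fibroblasts 4 reached the floor, 3 with a ratio above zero, and the summed signal of all 10 was 1142 and 1535. COL1A2, COL3A1, LUM, PDGFRA, PDGFRB and THY1 were below the floor on both arrays. Of 5 named leukocyte markers 2 were above the floor, with PTPRC below, and the summed signal of all 5 was 429.9 and 373.7. Of 5 endothelial markers 1 was above it, and all 5 summed to 424.3 and 473.7. The part of these markers in the ratios of IGFBP3, IGFBP6 and IRS1 was not tested, and fewer cells of a type cannot be told apart from less RNA per cell in a culture measured in bulk.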

How the data were processed

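Biotin-labelled cRNA from total RNA of both OECM1 cultures was hybridised to 1-colour Affymetrix arrays, per the labels' protocols. Linear signal intensities were deposited. MAS5 is the tool in the submitters' processing notes. Its version was not given in the sources used here. With 2% trimmed at each end, the mean intensity is 500.1 on each array. Mismatch subtraction in MAS5 makes dim values noisy. Precision is limited by the number of arrays.

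Probe sets were assigned to genes by the platform annotation, and Entrez IDs were looked up in RefSeq (GRCh38.p14). Of 54675 probe sets, 41097 had 1 symbol and were kept (41043 found in RefSeq), 1801 had several and 11777 none. The brightest probe set by mean log2 signal stood for its gene. The floor of an array was its median, and the centring shift was 0.0036. No test across samples was possible, so calls were by size alone. All 10 genes were named, and of each list of other pathway genes those past 2-fold and up to 4 more with the largest ratios among genes measured on both arrays. INS, IGF1, IGFBP5, IGFALS, PAPPA, PRSS23, AKT2 and CD3E and the neighbouring genes were named outside this rule, after their values were seen. Members and lists were chosen with earlier results of these data known. Other settings tried were ratios without centring or centred by lowess (fraction 0.3, 3 iterations), quantile normalization, a floor at the 25th or 65th percentile or none, averaging a gene's probe sets, dropping _s_at and _x_at probe sets, and calling at 1.5-fold or 3-fold. The procedure was tested on simulated data with probe noise only. That simulation held no variation between cultures, so it cannot speak to such variation. Software was Python 3.11.15, NumPy 2.4.6, pandas 2.3.3, SciPy 1.17.1, statsmodels 0.14.6 and Matplotlib 3.10.9.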

Additional observations from a re-analysis of the deposited data

How the results depend on the processing

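Over 10 alternatives, 89 of 102 recomputed values moved by less than the probe set SD or, for counts, by no more than 1.5 times. Values that could not be recomputed are not among the 102. A change of sign was looked for only in member ratios past 2-fold, which was IGFBP3 alone. Its 7 recomputed ratios all stayed below zero. The log2 ratio ran from -2.20 to -2.13 for IGFBP3 and from -0.74 to -0.70 for IGFBP6. It ran from 0.62 to 0.91 for IRS1, the highest value being the mean over its probe sets (0.91). The small ratios of IGF1R (-0.079 to 0.020), IGF2R (-0.086 to 0.051) and INSR (-0.12 to 0.22) took either sign. Without probe sets ending in _s_at or _x_at no value could be given for IGFBP3, IRS2 or TIMP3. Thus 0 members and 0 other pathway genes were at least 2-fold lower in that setting, beside 1.41% of all genes. With 1.5-fold as the threshold, 2 members were lower and 1 higher, and of the 81 other pathway genes 10 were lower and 7 higher, against 5.93% and 4.18% of all genes. With 3-fold, 1 member and 1 other pathway gene were lower and 1 other pathway gene was higher, against 0.195% and 0.277% of all genes. A floor at the 25th percentile gave 4 other pathway genes lower and 6 higher (6.47% and 3.80% of all genes), and no floor gave 5 and 10 (10.5% and 8.05%). A floor at the 65th percentile left 1 lower and 1 higher (0.731% and 0.638%). The last 3 settings differ in how dim signals enter. No paired analysis was possible because each group had 1 array.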
